A study of Homo sapiens with 8 samples.

Results

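The data described here are the RNA levels of 55 genes for plasma proteins in HepG2 cells, a human liver cancer cell line, that overexpressed the drug-metabolizing enzyme CYP2C19. The genes were chosen by their protein product, out of 60230 genes in the table, when earlier results of these data were known. The 55 genes fall into 5 subgroups: 14 carriers and other transport proteins, 12 clotting factors, 9 anticoagulant and fibrinolytic proteins, 9 protease inhibitors together with angiotensinogen, and 11 complement proteins. Cells received compound 4 (metylcresol in the labels), compound 5 (tetrabut), compound 6 (cyclohexil) or the solvent DMSO for 24 h, with 2 samples in each of the 4 groups. All groups, the DMSO control included, carried the CYP2C19 transgene and were grown with blasticidin, and whether the line is 1 clone is not given in the sources used here. The compounds are antioxidants used in plastics. Compounds 4 and 6 each join a pair of phenol rings by a methylene bridge and differ in a ring substituent, tert-butyl in compound 4 and cyclohexyl in compound 6, whereas in compound 5 the bridge is an ethane unit and the rings bear tert-butyl groups. Each compound was given at its own IC50, so the concentrations were not the same.

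The liver secretes most proteins of the blood plasma. Albumin and its fetal relative alpha-fetoprotein carry small molecules, transferrin carries iron, fibrinogen is cleaved by thrombin to form the fibrin clot, and serpins and other inhibitors hold the proteases of clotting, fibrinolysis and inflammation in check. In the acute phase response, interleukin 6 raises fibrinogen, haptoglobin and some inhibitors, while albumin and transferrin fall.

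The estimated counts summed to between 9791659 and 17814595 per library. The labels name the replicates day 1 and day 2, and nothing says that they were separate cultures, so the p-values measure the spread between these samples, which may be technical. The labels mark the DMSO library and the compound 4 library of replicate 1 as each merged from 2 items, and do not say what these were. The cells had hepatocyte markers, with a summed level of 10 such genes of 11126 to 16956 CPM (counts scaled to a common library size, with TMM factors), and 1 of the 10 did not exceed 10 counts. That sum was 14809 to 16956 CPM under DMSO, 11126 to 11327 under compound 4, 13357 to 13484 under compound 5 and 12563 to 14960 under compound 6. It was thus lower under compounds 4 and 5 than in either DMSO library. APOB was the largest part of this sum, at 10494.5 and 8742 CPM in DMSO cells and 5609 and 6970 in compound 4 cells. Not all of these markers fell. Of the 9 tested, 4 had positive and 5 negative log2-fold changes for compound 4, and 3 and 6 for compound 5. The part of this sum in the results on the plasma protein genes was not tested. Endothelial markers summed to 0.739 to 2.08 CPM, with 3 of 6 at 0, and fibroblast markers to 15.0 to 34.3 CPM, with 3 of 7 at 0. Among leukocyte markers, PTPRC and CD3E were at 0 in every library, while the sum of 1421 to 2192 CPM came almost wholly from LYZ.

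Of the 55 genes, 47 had enough counts to be tested. The other 8 were barely detected. F9 had 0 counts in all 8 libraries, which allows up to 0.0312 CPM over their summed depth (3 counts, counting error only). GC and HRG had at most 1 and 2 counts in any library, ITIH4 3, SERPING1 4, C6 and ITIH1 7, and F13B 8. In DMSO cells the level per kilobase of coding length spanned more than 5 orders of magnitude in the plot of levels per length. ALB was highest (10922 ± 527 CPM per kb, SD, n = 2), followed by AFP (4727 ± 127), AHSG (3494 ± 326), TF (3083 ± 226) and SERPINA1 (3000.3 ± 143.5). TF and SERPINA1 overlapped between the DMSO libraries, so their order is not set. FGG, at 731 ± 60.3 CPM per kb, ranked 10 and stood above FGA (199.99 ± 5.53) and FGB (126 ± 13.3), the genes of the other fibrinogen chains.

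**Figure D1:**
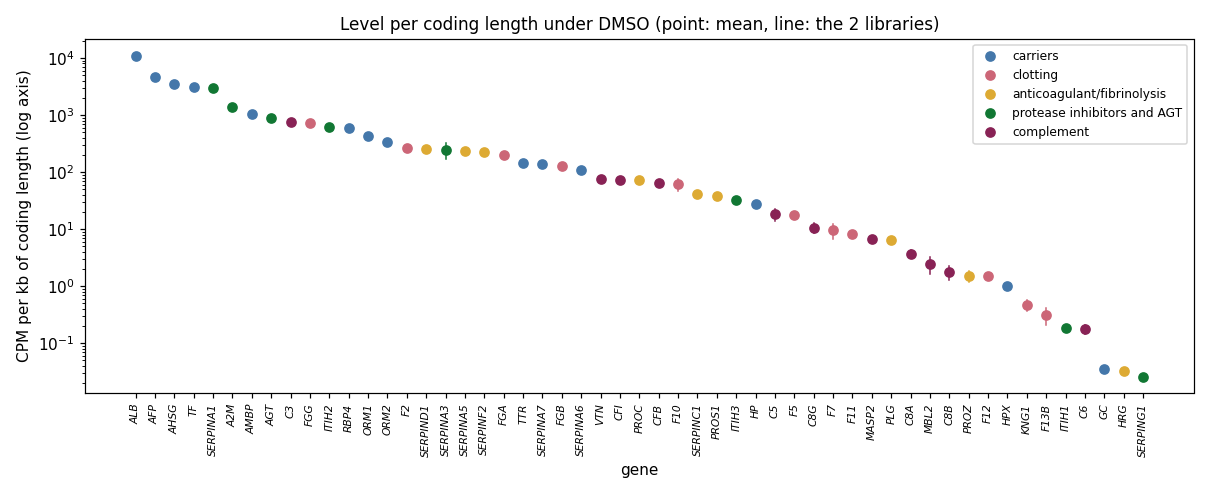
Mean level under DMSO in CPM per kilobase of coding length (log axis) of the plasma protein genes with counts there, sorted and coloured by subgroup, with a line joining the 2 libraries. ALB leads at 10922 CPM per kb, and the untested genes lie at the right end.

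Together the 55 genes took 6.38 ± 0.174% of all counts under DMSO (SD, n = 2). In cells given compound 4 it was 5.20 ± 0.784%, with compound 5 it was 5.51 ± 0.0773% and with compound 6 it was 5.18 ± 0.438%. All 6 treated libraries lay below both DMSO libraries, which held 6.26% and 6.50%. Most of this was in the carriers, whose share was 4.23 ± 0.0218% under DMSO and 3.17 ± 0.535%, 3.33 ± 0.0606% and 3.18 ± 0.256% under compounds 4, 5 and 6. Clotting genes went from 0.250 ± 0.0112% under DMSO to 0.169 ± 0.0197%, 0.288 ± 0.0247% and 0.189 ± 0.0125%. The samples held a single cell line, and bulk levels cannot show whether all cells or only some of them changed.

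**Figure D2:**
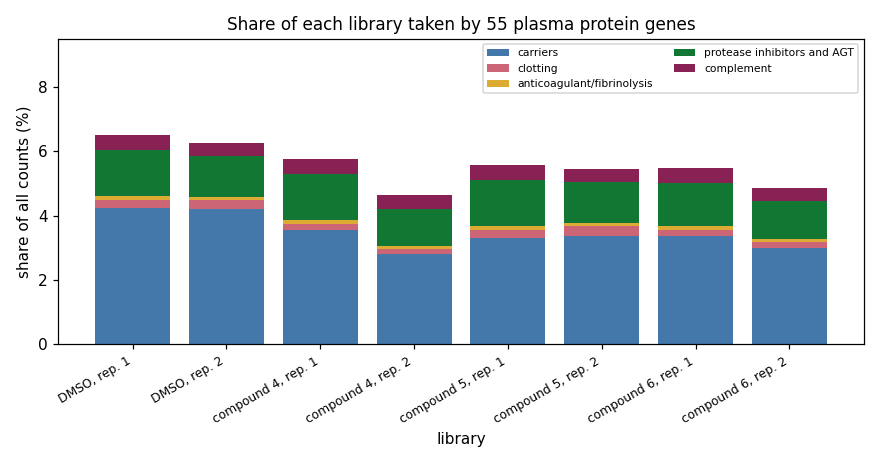
Share of all counts (%) taken by the 55 plasma protein genes in each of the 8 libraries, stacked by subgroup. The carriers make up most of every bar, and the 2 DMSO bars are the tallest.

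Against DMSO, compound 4 lowered 7 plasma protein genes and raised 1. AFP, TF, HP, SERPINA6, FGA, FGG and ITIH2 fell, and ITIH3 rose. Compound 5 raised FGB, KNG1 and ITIH3 and lowered HP and SERPINF2. Under compound 6 no member passed the test. The counts rest on the quasi-likelihood test of edgeR, adjusted over 13400 genes by the Benjamini-Hochberg procedure. They make 8 of 47 tested members for compound 4, against 9.51% of all tested genes, 5 of 47 for compound 5, against 8.3%, and 0 of 47 for compound 6, against 0.575%. By direction, 5.6% of all tested genes were higher and 3.91% lower under compound 4, and 5.35% were higher and 2.95% lower under compound 5. KNG1 reached the filter on low counts only through the compound 5 libraries, and without it 4 of 46 members passed for compound 5. For compound 6, 14 members had an unadjusted p under 0.05, beside 18.6% of all genes, and DESeq2 called 7. With the replicate number as a block, the counts were 13, 14 and 2 for compounds 4, 5 and 6. The share of all genes called with DESeq2 or with the block was not worked out, so these counts have no reference. With no filter on low counts more members passed, 18, 18 and 13 for compounds 4, 5 and 6. A pass in that setting below is therefore no separate evidence for a gene. Where no other setting is named, a call or its absence below is that of the fit of all 8 samples without the block.

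These counts depended on single libraries. Without DMSO replicate 2 no member passed under compound 4, without DMSO replicate 1 there were 3, without compound 4 replicate 2 there were 2, and without compound 4 replicate 1 there were 11. For compound 5, 2 members passed without DMSO replicate 1 or without compound 5 replicate 1, 3 without DMSO replicate 2 or compound 5 replicate 2, and 11 and 10 without compound 4 replicates 1 and 2. For compound 6, 3 members passed without either compound 4 library and 1 without either compound 5 library.

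Over the 47 tested members the median log2-fold changes for compounds 4, 5 and 6 were −0.31, −0.17 and −0.18, beside 0.01, 0.00 and 0.02 over all genes tested. The median for compound 4 was −0.49 without its replicate 1 and −0.12 without its replicate 2. For compound 6 it was −0.32 without its replicate 1, −0.09 without its replicate 2 and −0.10 without DMSO replicate 1. Under compound 4, 21 members had both libraries below both DMSO libraries and 4 had both above, where the shares over all genes were 28% and 30.4%. Under compound 5 these counts were 24 and 9, beside 28.5% and 31% of all genes, and under compound 6 they were 23 and 4, beside 26.1% and 29.3%. The comparisons share their DMSO libraries.

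**Figure D3:**
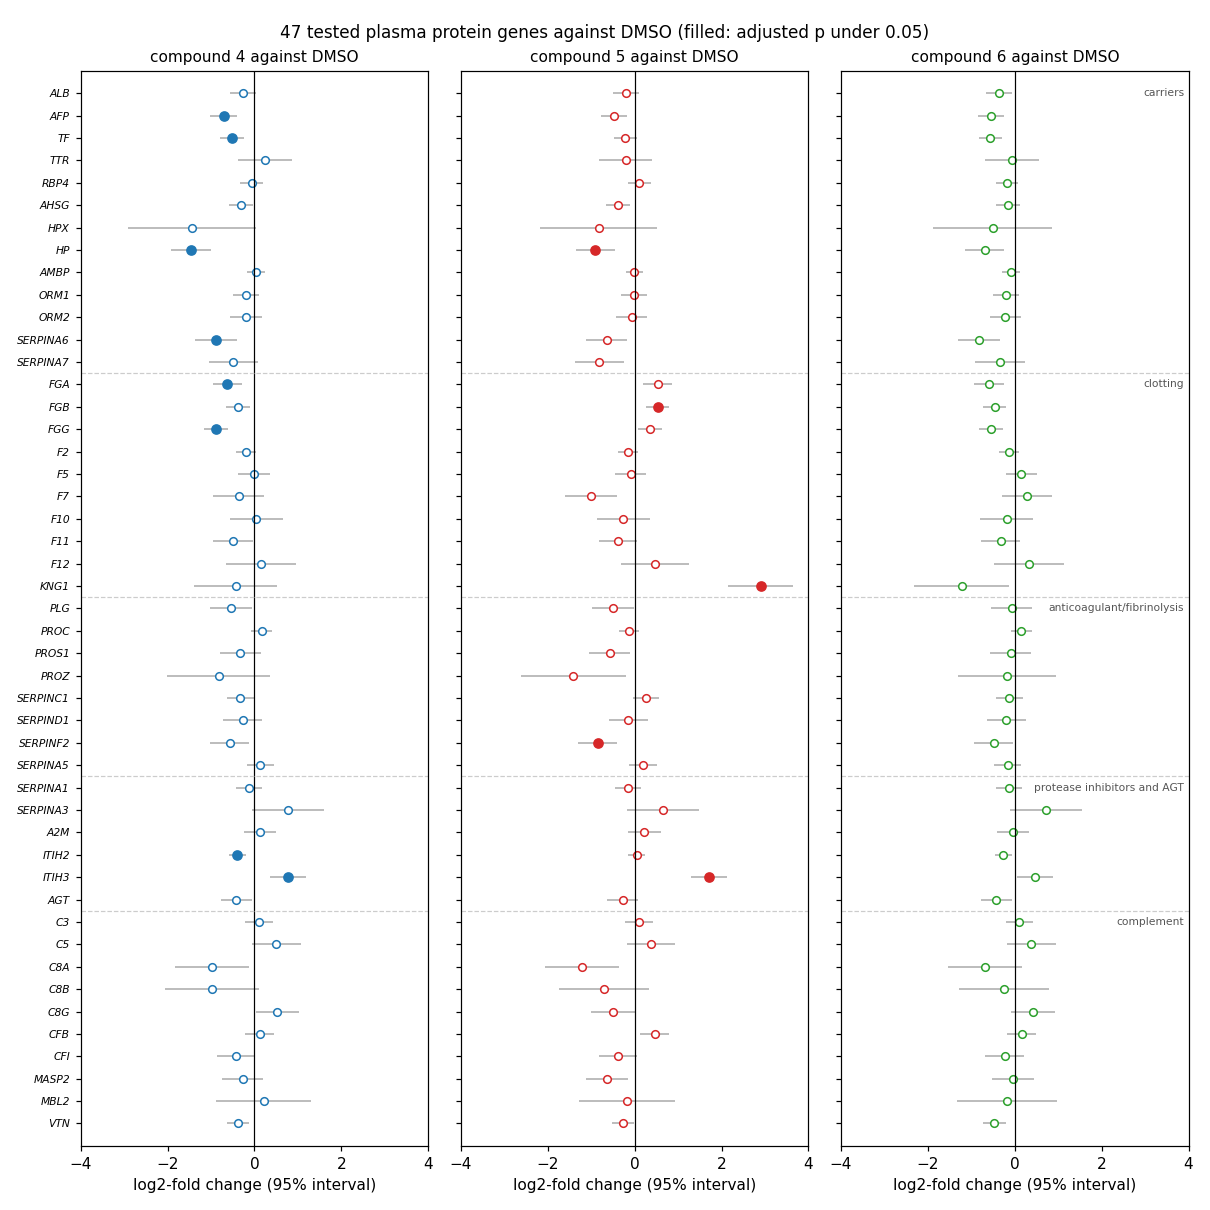
Log2-fold change against DMSO (horizontal axis) with its 95% interval for the 47 tested plasma protein genes, grouped by subgroup, in 1 panel per compound, with filled points for an edgeR adjusted p under 0.05. KNG1 and ITIH3 stand out to the right under compound 5 (2.90 and 1.72), HP lies furthest left among filled points under compound 4 (−1.47), and no point is filled under compound 6.

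Fibrinogen separated the compounds. FGA, FGB and FGG encode its alpha, beta and gamma chains, which are assembled into 1 protein, and lie next to each other on chromosome 4 (GRCh38, GENCODE 29: FGB at 154562956 to 154571086 on the plus strand, FGA at 154583126 to 154590766 and FGG at 154604134 to 154612967 on the minus strand). All 3 were higher under compound 5 and lower under compounds 4 and 6 than in both DMSO libraries.

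The bases before the start sites of these genes are shown because the 3 genes moved together, with those of KNG1 and ITIH3, which were also higher under compound 5. Each is the 250 bases upstream of the RefSeq start (GRCh38.p14), 5′ to 3′ on the strand of the gene. Capitals mark matches, on either strand, to letters known from liver promoters. The core of HNF1 sites was searched as GTTAAT. The C/EBP letters were TTGCNNAA. The interleukin 6 response element was searched as CTGGGAA. The STAT letters were TTCNNNGAA. For the TATA box the letters TATAAA were used.
FGA, chr4:154590743-154590992, minus strand: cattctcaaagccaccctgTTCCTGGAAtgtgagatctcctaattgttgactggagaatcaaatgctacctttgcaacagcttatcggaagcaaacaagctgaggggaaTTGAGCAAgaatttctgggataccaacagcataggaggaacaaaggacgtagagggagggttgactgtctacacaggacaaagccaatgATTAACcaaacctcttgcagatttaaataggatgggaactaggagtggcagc
FGB, chr4:154562730-154562979, plus strand: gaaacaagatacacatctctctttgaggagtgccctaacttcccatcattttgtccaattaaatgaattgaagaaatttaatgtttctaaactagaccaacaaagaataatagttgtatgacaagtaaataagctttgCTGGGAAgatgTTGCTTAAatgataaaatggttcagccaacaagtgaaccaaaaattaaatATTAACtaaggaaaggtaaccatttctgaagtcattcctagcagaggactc
FGG, chr4:154612657-154612906, minus strand: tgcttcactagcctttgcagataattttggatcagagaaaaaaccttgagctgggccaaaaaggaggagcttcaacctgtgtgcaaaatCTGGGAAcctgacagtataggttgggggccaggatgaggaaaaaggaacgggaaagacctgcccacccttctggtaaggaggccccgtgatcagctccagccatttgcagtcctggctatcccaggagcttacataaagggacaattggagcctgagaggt
KNG1, chr3:186717109-186717358, plus strand: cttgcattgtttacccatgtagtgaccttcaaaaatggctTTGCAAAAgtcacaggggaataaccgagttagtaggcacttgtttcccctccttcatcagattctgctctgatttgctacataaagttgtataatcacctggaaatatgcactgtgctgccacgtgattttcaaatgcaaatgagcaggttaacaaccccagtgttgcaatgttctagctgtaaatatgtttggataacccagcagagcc
ITIH3, chr3:52794546-52794795, plus strand: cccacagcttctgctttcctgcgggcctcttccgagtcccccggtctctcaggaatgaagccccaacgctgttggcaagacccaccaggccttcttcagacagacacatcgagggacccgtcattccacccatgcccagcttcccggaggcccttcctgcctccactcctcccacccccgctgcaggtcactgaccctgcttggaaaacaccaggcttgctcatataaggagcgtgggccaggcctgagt

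FGA held the HNF1 letters at −52, the C/EBP letters at −141 and the STAT letters at −231 from the start, and FGB held the HNF1 letters at −51, the C/EBP letters at −101 and the interleukin 6 element at −112. FGG had the interleukin 6 element at −161, KNG1 the C/EBP letters at −210, and ITIH3 no match. Among the 44 members with a RefSeq promoter, 27.3% held the HNF1 letters, 25% the C/EBP letters, 20.5% the interleukin 6 element, 27.3% the STAT letters and 15.9% the TATA letters. Over 35116 promoters the shares were 6.23%, 9.05%, 9.15%, 6.57% and 10.7%. The interleukin 6 and STAT letters can overlap in 1 stretch. A match describes the letters and not a bound site.

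FGA was at 529.7 and 509 CPM in the 2 DMSO libraries, 385 and 291 under compound 4, 727 and 781 under compound 5, and 383 and 305 under compound 6. FGB was at 172 and 200.1 CPM under DMSO, 153 and 134 under compound 4, 254 and 285 under compound 5, and 139.9 and 129.7 under compound 6. FGG was at 953 and 1071 CPM under DMSO, 603 and 495 under compound 4, 1224 and 1371 under compound 5, and 719 and 660.4 under compound 6. For each of the 3 genes, the compound 5 libraries were the highest of the 8, the DMSO libraries came next, and no compound 4 or 6 library reached a DMSO library.

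Under compound 4, FGG fell by 45.7% (log2-fold change −0.88 ± 0.12, SE, edgeR adjusted p = 0.0053) and FGA fell by 35.0% (−0.62 ± 0.15, edgeR adjusted p = 0.032). FGB had a log2-fold change of −0.38 ± 0.12 and did not pass (edgeR adjusted p = 0.079). FGG lost its call without DMSO replicate 2 (edgeR adjusted p = 0.076), and FGA without DMSO replicate 1, DMSO replicate 2 or compound 4 replicate 2 (edgeR adjusted p = 0.13, 0.17 and 0.19).

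Under compound 5, FGB rose by 44.4% (log2-fold change 0.53 ± 0.12, edgeR adjusted p = 0.030). FGA changed by 0.54 ± 0.15 with an edgeR adjusted p of 0.055, or 0.035 with the replicate block, and FGG by 0.36 ± 0.12 with an edgeR adjusted p of 0.098. FGB lost its call without either DMSO library, either compound 5 library or compound 6 replicate 1 (edgeR adjusted p between 0.054 and 0.19). Under compound 6 the log2-fold changes were −0.59 ± 0.15 for FGA, −0.47 ± 0.12 for FGB and −0.55 ± 0.12 for FGG, with edgeR adjusted p-values of 0.094, 0.10 and 0.072, while DESeq2 called all 3.

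The 3 chains did not keep a fixed ratio. FGG counts were 5.53 and 5.35 times FGB counts in the DMSO libraries and 3.95 and 3.69 times under compound 4. The ratio was 4.83 and 4.82 under compound 5 and 5.14 and 5.09 under compound 6. FGG to FGB was thus lower in every treated library than in either DMSO library, and lowest under compound 4. FGA to FGB ranged from 2.17 to 3.07, with the highest value in DMSO replicate 1 and overlap between groups.

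**Figure D4:**
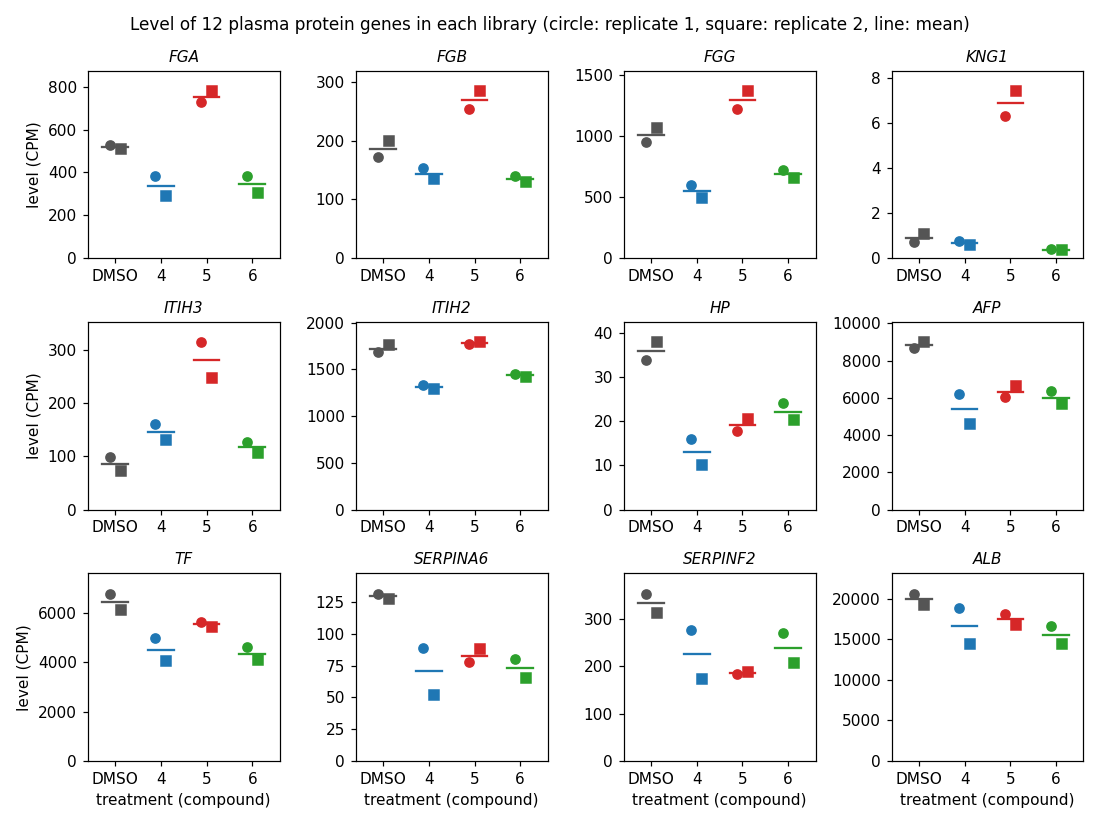
CPM in each library for 12 plasma protein genes (vertical axes from 0), with circles for replicate 1, squares for replicate 2 and a line at the mean of the 2, under DMSO and compounds 4, 5 and 6. The compound 5 points are the highest of each panel for FGA, FGB, FGG, KNG1 and ITIH3, while for HP, AFP, TF and SERPINA6 all treated points lie below DMSO.

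KNG1, the gene of kininogen, the precursor of bradykinin and a cofactor of contact activation, was scarce except under compound 5. It had 7 and 13 counts in the DMSO libraries, 8 and 8 under compound 4, 77 and 131 under compound 5 and 4 and 4 under compound 6. In CPM these were 0.717 and 1.09, 0.750 and 0.608, 6.33 and 7.45, and 0.392 and 0.379. Only the compound 5 libraries exceeded 2 CPM. KNG1 was 7.48-fold higher under compound 5 than under DMSO (log2-fold change 2.90, 95% interval 2.15 to 3.65, edgeR adjusted p = 0.0031). It was the 1 member that reached the filter on low counts only through a single group, that of compound 5, so the filter chose it by the difference tested, and the p-values of KNG1 in comparisons with compound 5 are given as a description. With no filter its edgeR adjusted p was 5.24e-12. That fit called 18 members for compound 5, beside 5 with the filter, so this p-value is a description too. Under compounds 4 and 6 the log2-fold changes were −0.44 ± 0.43 and −1.22 ± 0.49, with edgeR adjusted p-values of 0.56 and 0.22. An annotated gene on the opposite strand overlaps KNG1, and whether the counting used the strand is not given in the sources used here.

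The other clotting factors did not pass the test under any compound in the fit of all 8 samples. F2 encodes prothrombin and was at 493 and 489.9 CPM under DMSO, 453 and 403 under compound 4, 416 and 464 under compound 5, and 446 and 453 under compound 6. Its log2-fold changes were −0.20 ± 0.10, −0.16 ± 0.10 and −0.13 ± 0.10 for compounds 4, 5 and 6 (edgeR adjusted p = 0.24, 0.33 and 0.54). F7, the factor that starts clotting with tissue factor, was at 17.3 and 9.20 CPM under DMSO, 10.8 and 9.65 under compound 4, 6.83 and 6.31 under compound 5, and 17.4 and 14.5 under compound 6. Both compound 5 libraries were below the other 6. F7 had a log2-fold change of −1.004 ± 0.272 under compound 5 (edgeR adjusted p = 0.052, or 0.033 with the replicate block), and also passed with DESeq2, with no filter, with at least 10 counts in every sample and without DMSO replicate 2 (adjusted p between 0.000103 and 0.0428). F12, the contact factor, was at 2.97 and 2.59 CPM under DMSO, 2.72 and 3.42 under compound 4, 2.96 and 4.61 under compound 5, and 4.41 and 2.56 under compound 6. It had the highest value of the subgroup under compounds 4 and 6 (0.15 ± 0.36 and 0.33 ± 0.36), and its libraries overlapped. F5, F10 and F11 lay between −0.49 and 0.15 in all 3 comparisons. In the clotting subgroup as a whole, 2 of 10 tested genes passed under compound 4, 2 under compound 5 and 0 under compound 6. Of all genes tested, 9.51%, 8.3% and 0.575% passed. The 2 under compound 5 were FGB and KNG1, and KNG1 reached the filter on low counts only through the compound 5 libraries. The medians of the subgroup were −0.37, 0.13 and −0.26. The median under compound 5 turned negative with no filter on low counts (−0.08), with a stricter one (−0.11) and with DESeq2 (−0.09).

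Among the protease inhibitors, ITIH3 rose under compounds 4 and 5. It encodes a heavy chain of the inter-alpha-trypsin inhibitors, which bind hyaluronan, and ITIH2 encodes another. ITIH3 was at 98.1 and 72.4 CPM under DMSO, 161 and 130.3 under compound 4, 314 and 247 under compound 5, and 127 and 106 under compound 6. Every treated library was above both DMSO libraries, and the compound 5 libraries were the highest. The rise was 3.30-fold under compound 5 (log2-fold change 1.72 ± 0.19, edgeR adjusted p = 0.0030), a call that held in all 14 alternatives, and 1.71-fold under compound 4 (0.78 ± 0.18, edgeR adjusted p = 0.030). Compound 6 gave 0.46 ± 0.18 (edgeR adjusted p = 0.23). The compound 4 call was lost without DMSO replicate 2, compound 4 replicate 1 or compound 4 replicate 2 (edgeR adjusted p = 0.24, 0.12 and 0.078).

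ITIH2 did not follow ITIH3. It was at 1685 and 1760.4 CPM under DMSO, 1327 and 1286 under compound 4, 1775 and 1791 under compound 5, and 1451 and 1419 under compound 6. It fell by 24.2% under compound 4 (log2-fold change −0.40 ± 0.09, edgeR adjusted p = 0.024) and had 0.05 ± 0.09 and −0.26 ± 0.09 under compounds 5 and 6 (edgeR adjusted p = 0.74 and 0.16). The compound 4 call was lost without either DMSO library or without compound 4 replicate 2 (edgeR adjusted p between 0.086 and 0.20). The counts of ITIH3 were 0.0582 and 0.0411 of those of ITIH2 in the DMSO libraries and 0.177 and 0.138 under compound 5. They were 0.122 and 0.101 under compound 4 and 0.0878 and 0.0749 under compound 6, also above both DMSO libraries.

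SERPINA3, the acute phase protein alpha-1-antichymotrypsin, was at 415 and 211 CPM under DMSO, 664 and 401 under compound 4, 642 and 344 under compound 5, and 590.3 and 432 under compound 6. In each group replicate 1 exceeded replicate 2, and each treated library was above the DMSO library of the same number. The log2-fold changes were 0.77 ± 0.37, 0.66 ± 0.37 and 0.71 ± 0.37 for compounds 4, 5 and 6 and did not pass (edgeR adjusted p = 0.21, 0.27 and 0.34). With the replicate block they were 0.80, 0.67 and 0.78 and all passed (edgeR adjusted p = 0.0098, 0.019 and 0.047).

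The abundant inhibitors SERPINA1 and A2M and the hormone precursor AGT gave no call in the fit of all 8 samples. SERPINA1 encodes alpha-1-antitrypsin and lay between 2960 and 3948 CPM in all libraries, with log2-fold changes of −0.12 ± 0.13, −0.15 ± 0.13 and −0.13 ± 0.13 for compounds 4, 5 and 6. A2M encodes the broad protease inhibitor alpha-2-macroglobulin and had 0.14 ± 0.17, 0.22 ± 0.17 and −0.05 ± 0.17, all with libraries that overlapped DMSO. AGT, angiotensinogen, was at 1343 and 1263 CPM under DMSO, 1135 and 816 under compound 4, 1039 and 1115 under compound 5, and 1071 and 858 under compound 6. All treated libraries were below DMSO, with log2-fold changes of −0.42 ± 0.16, −0.28 ± 0.16 and −0.43 ± 0.16 (edgeR adjusted p = 0.13, 0.28 and 0.19). AGT passed under compound 4 without compound 4 replicate 1 (edgeR adjusted p = 0.036) and with no filter under compounds 4 and 6 (edgeR adjusted p = 0.0033 and 0.0029).

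The carriers were the subgroup most often below DMSO. Of 13 tested, 4 fell under compound 4 and 1 under compound 5, and none passed under compound 6, where all 13 log2-fold changes were nevertheless negative. Of all genes tested, 3.91% were lower under compound 4 and 2.95% under compound 5, and 0.575% passed under compound 6. The medians were −0.31, −0.22 and −0.34 for compounds 4, 5 and 6. HP, haptoglobin, which binds free haemoglobin, was at 33.9 and 37.9 CPM under DMSO, 16.0 and 10.1 under compound 4, 17.77 and 20.6 under compound 5, and 24.1 and 20.3 under compound 6. No treated library reached a DMSO library. HP fell by 63.9% under compound 4 (log2-fold change −1.47 ± 0.21, edgeR adjusted p = 0.0050) and fell by 46.5% under compound 5 (−0.90 ± 0.20, edgeR adjusted p = 0.026). Compound 6 gave −0.70 ± 0.20 (edgeR adjusted p = 0.12). The compound 4 call was lost without DMSO replicate 2 (edgeR adjusted p = 0.066), and the compound 5 call without either DMSO library or without compound 5 replicate 1 (edgeR adjusted p between 0.10 and 0.17). HP has a near-copy, HPR, with which its reads can be confused.

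AFP, alpha-fetoprotein, was at 8653 and 8988 CPM under DMSO, 6180 and 4593 under compound 4, 6030.3 and 6630 under compound 5, and 6359 and 5665 under compound 6. TF, transferrin, was at 6791 and 6121 CPM under DMSO, 4970 and 4059 under compound 4, 5647 and 5438 under compound 5, and 4618 and 4087 under compound 6. SERPINA6, which carries glucocorticoids, was at 132 and 128 CPM under DMSO, 89.1 and 51.9 under compound 4, 77.7 and 88.2 under compound 5, and 80.1 and 65.6 under compound 6. In all 3 genes the treated libraries were below both DMSO libraries, and compound 4 replicate 2 was the lowest of the 8. Under compound 4, AFP fell by 38.9% (log2-fold change −0.71 ± 0.14, edgeR adjusted p = 0.016), TF fell by 30.1% (−0.52 ± 0.12, edgeR adjusted p = 0.028) and SERPINA6 fell by 45.8% (−0.88 ± 0.21, edgeR adjusted p = 0.033). Each of these calls was lost without DMSO replicate 1, DMSO replicate 2 or compound 4 replicate 2, with edgeR adjusted p-values between 0.065 and 0.17.

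Under compound 5 AFP had −0.48 ± 0.14 (edgeR adjusted p = 0.060, or 0.046 with the replicate block), TF −0.22 ± 0.12 and SERPINA6 −0.64 ± 0.21 (edgeR adjusted p = 0.25 and 0.088). Under compound 6 the values were −0.55 ± 0.14 for AFP, −0.57 ± 0.12 for TF and −0.83 ± 0.21 for SERPINA6 (edgeR adjusted p = 0.088, 0.058 and 0.10), and with the replicate block TF passed (edgeR adjusted p = 0.030). Part of TF is overlapped on its own strand by other annotated genes.

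ALB, albumin, the most abundant of the 55, was at 20636 and 19274 CPM under DMSO, 18899 and 14354 under compound 4, 18150 and 16803 under compound 5, and 16662 and 14369 under compound 6. All treated libraries were below both DMSO libraries, but its log2-fold changes of −0.26 ± 0.13, −0.19 ± 0.13 and −0.36 ± 0.13 did not pass (edgeR adjusted p = 0.24, 0.37 and 0.19). ALB counts were 2.38 and 2.14 times AFP counts under DMSO, and 3.06 and 3.13 times under compound 4. The ratio was 3.01 and 2.53 under compound 5 and 2.62 and 2.54 under compound 6, so every treated library was above both DMSO libraries. TTR, transthyretin, was at 87.5 and 73.0 CPM under DMSO and at 127 and 63.8 under compound 4, so its highest and one of its lowest values were replicates of 1 group. Its log2-fold changes were 0.25 ± 0.28, −0.21 ± 0.28 and −0.07 ± 0.28. RBP4, which carries retinol, was at 352 and 356 CPM under DMSO, 374 and 303 under compound 4, 359 and 402 under compound 5, and 313 and 312 under compound 6. RBP4 had the highest value of the carriers under compound 5 (0.10 ± 0.12, edgeR adjusted p = 0.59). SERPINA7, which carries thyroid hormone, passed under compounds 4 and 5 with the replicate block (−0.52 and −0.81, edgeR adjusted p = 0.035 and 0.013), beside −0.49 and −0.81 without it (edgeR adjusted p = 0.25 and 0.078). It also passed with no filter under both, and under compound 5 with only the 4 samples and without either compound 4 library (edgeR adjusted p = 0.031, 0.040 and 0.040). AHSG, a mineral-binding protein, was at 4112 and 3603 CPM under DMSO, 3461 and 2744 under compound 4, 2863 and 3031 under compound 5, and 3606 and 3343 under compound 6. Compound 6 replicate 1 overlapped DMSO, and the other treated libraries lay below. AHSG passed under compound 5 with the block (−0.38, edgeR adjusted p = 0.044, and 0.082 without it). The remaining carriers, HPX, AMBP, ORM1 and ORM2, did not pass in any of the 3 comparisons with or without the block, and ORM1 and ORM2 are near-identical copies whose reads can be confused.

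Of the 8 tested anticoagulant and fibrinolytic genes, 1 passed under compound 5 and none under compounds 4 and 6, with medians of −0.33, −0.32 and −0.14 for compounds 4, 5 and 6. Of all genes tested, 9.51%, 8.3% and 0.575% passed for compounds 4, 5 and 6. SERPINF2, alpha-2-antiplasmin, the main inhibitor of plasmin, was at 354 and 314 CPM under DMSO, 277 and 174 under compound 4, 185 and 187 under compound 5, and 270.0 and 207 under compound 6. All treated libraries were below DMSO. It fell by 44.3% under compound 5 (log2-fold change −0.84 ± 0.20, edgeR adjusted p = 0.036), a call lost without any 1 of the DMSO or compound 5 libraries (edgeR adjusted p between 0.066 and 0.18). Compounds 4 and 6 gave −0.57 ± 0.20 and −0.48 ± 0.20 (edgeR adjusted p = 0.10 and 0.24), and compound 4 passed with the replicate block (edgeR adjusted p = 0.038).

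SERPINC1, antithrombin, was at 54.0 and 58.5 CPM under DMSO, 49.2 and 40.9 under compound 4, 60.7 and 73.2 under compound 5, and 51.3 and 52.0 under compound 6. Its log2-fold changes were −0.32 ± 0.14, 0.25 ± 0.13 and −0.12 ± 0.14 (edgeR adjusted p = 0.16, 0.24 and 0.67). Its compound 5 libraries were the highest of the 8 and those of compounds 4 and 6 lay below both DMSO libraries. PROZ, the cofactor protein Z, was at 2.35 and 1.51 CPM under DMSO, 1.59 and 0.608 under compound 4, 0.823 and 0.625 under compound 5, and 2.06 and 1.32 under compound 6. It had the lowest values of the subgroup under compounds 4 and 5 (−0.83 ± 0.53 and −1.41 ± 0.54, edgeR adjusted p = 0.35 and 0.13), at 8 to 23 counts per library. PROC, protein C, was at 109 and 104 CPM under DMSO, 119 and 119 under compound 4, 91.1 and 103 under compound 5, and 123 and 112 under compound 6. It had 0.17 ± 0.11 under compound 4 and 0.15 ± 0.11 under compound 6, the highest there, and both pairs of libraries were above DMSO. PROS1, protein S, passed under compound 5 with the replicate block (−0.58, edgeR adjusted p = 0.028, and 0.11 without it) and with no filter (edgeR adjusted p = 0.0016). PLG, SERPIND1 and SERPINA5 had log2-fold changes between −0.54 and 0.19.

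The vitamin K-dependent members, which need gamma-carboxylation for their function, cut across clotting and anticlotting. The 6 tested were F2, F7, F10, PROC, PROS1 and PROZ, and all 6 had a negative log2-fold change under compound 5 (median −0.42), 5 of them with both libraries below DMSO, where 28.5% of all genes did so. None passed in the fit of all 8 samples, while F7 and PROS1 passed in the settings given above and PROZ with no filter (edgeR adjusted p = 0.045). Under compound 4, 4 were negative (median −0.27), and under compound 6, 4 (median −0.11).

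In the fit of all 8 samples no complement member passed under any compound, with 3, 4 and 1 of 10 at an unadjusted p under 0.05 for compounds 4, 5 and 6, beside 27.5%, 28.4% and 18.6% of all genes. C3, the central component, was at 4165 and 3285 CPM under DMSO, 4230 and 3803 under compound 4, 4347 and 3630 under compound 5, and 4296 and 3714 under compound 6. The groups overlapped, and the log2-fold changes were 0.11 ± 0.14, 0.10 ± 0.14 and 0.10 ± 0.14. VTN, vitronectin, which binds the terminal complex, was at 110.1 and 104 CPM under DMSO, 88.2 and 77.02 under compound 4, 84.4 and 94.6 under compound 5, and 80.3 and 74.7 under compound 6. It was below DMSO in all treated libraries, with log2-fold changes of −0.38 ± 0.11, −0.26 ± 0.11 and −0.47 ± 0.12 (edgeR adjusted p = 0.069, 0.17 and 0.087). Under compound 6 it passed with DESeq2, with no filter and with only the 4 samples (adjusted p = 0.029, 0.013 and 0.020).

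The lowest complement value in each comparison was that of C8A, a chain of the membrane attack complex, at −0.98 ± 0.38, −1.22 ± 0.38 and −0.69 ± 0.38 for compounds 4, 5 and 6 (edgeR adjusted p = 0.13, 0.075 and 0.36). It was at 7.47 and 5.35 CPM under DMSO and 1.90 to 4.69 in treated libraries, and passed under compound 5 with the replicate block, with no filter, with only the 4 samples and without either compound 4 library (edgeR adjusted p between 0.00092 and 0.049). Under compound 4 it passed with no filter and without compound 4 replicate 1 (edgeR adjusted p = 0.012 and 0.032). C8G, another chain, was at 5.12 and 7.70 CPM under DMSO, 9.28 and 9.27 under compound 4, 4.77 and 4.43 under compound 5, and 8.03 and 9.18 under compound 6. It had the highest value under compounds 4 and 6 (0.52 ± 0.22 and 0.42 ± 0.23, edgeR adjusted p = 0.16 and 0.36) and −0.49 ± 0.23 under compound 5, and no treated library fell within the DMSO range. CFB, factor B of the alternative pathway, was at 164 and 128 CPM under DMSO, 166 and 151 under compound 4, 215 and 188 under compound 5, and 179 and 147 under compound 6. Its compound 5 libraries were the highest, and it had the highest value under compound 5 (0.46 ± 0.15, edgeR adjusted p = 0.081, or 0.022 with the block), and passed with DESeq2 (adjusted p = 0.033) and with no filter (0.0058). Under compound 4, C5 and CFI passed with the block (0.55 and −0.43, edgeR adjusted p = 0.049 and 0.035, beside 0.22 and 0.20 without it) and with no filter (edgeR adjusted p = 0.0040 and 0.019). C8B and MBL2 did not pass with or without the block.

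Between compounds, the fibrinogen genes, KNG1 and ITIH3 were the members that passed. With compound 4 against compound 5, 4 of 47 members passed, against 0.313% of all tested genes, all lower under compound 4 (0.127% of all genes were lower). With compound 6 against compound 5, 5 of 47 passed, against 1.03%, all lower under compound 6 (0.522% of all genes were lower). With compound 4 against compound 6, 0 of 47 passed and 0% of all tested genes did, with 945 genes (7.05%) and 3 members at an unadjusted p under 0.05 and no member called by DESeq2. At an unadjusted p under 0.05 there were 13 members for compound 4 against 5 and 16 for compound 6 against 5, beside 16.2% and 18.5% of all genes. Without KNG1, which reached the filter only through compound 5, 3 and 4 of 46 members passed in these 2 comparisons. The 3 comparisons share the libraries of each compound, and the concentrations differed between compounds.

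**Figure D5:**
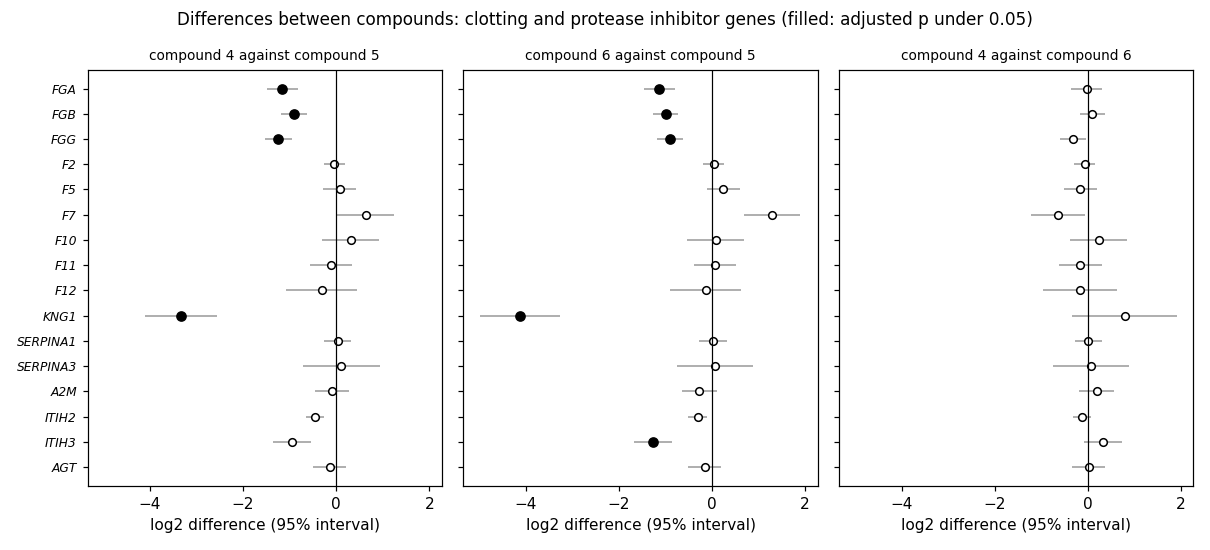
Log2 difference between compounds with its 95% interval for the tested clotting and protease inhibitor genes, in 1 panel per comparison, with filled points for an edgeR adjusted p under 0.05. FGA, FGB, FGG and KNG1 are filled and left of 0 in both comparisons with compound 5, ITIH3 in the comparison of compound 6 with compound 5, and none in compound 4 against compound 6.

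Compound 4 against compound 5, the log2 differences were −1.16 ± 0.15 for FGA, −0.91 ± 0.12 for FGB and −1.24 ± 0.13 for FGG (edgeR adjusted p = 0.018, 0.020 and 0.0044), and −3.34 ± 0.35 for KNG1 (edgeR adjusted p = 0.0048). The value for KNG1 is a description, since the filter on low counts chose it by this difference. The 95% intervals were −1.50 to −0.82, −1.18 to −0.64, −1.52 to −0.96 and −4.11 to −2.56. FGG passed in all 14 alternatives. FGA did not pass in a fit of only the 4 samples or without DMSO replicate 1, compound 4 replicate 2, compound 5 replicate 1 or compound 5 replicate 2 (edgeR adjusted p between 0.051 and 0.096). FGB did not pass in a fit of only the 4 samples or without either compound 4 library, compound 5 replicate 2 or compound 6 replicate 1 (edgeR adjusted p between 0.056 and 0.13), nor KNG1 without either compound 4 library or without compound 5 replicate 2 (edgeR adjusted p between 0.0625 and 0.0713). Thus 1 member passed without compound 4 replicate 2 or compound 5 replicate 2, and 2 without compound 4 replicate 1. ITIH3 and ITIH2 differed by −0.94 ± 0.18 and −0.45 ± 0.09 (edgeR adjusted p = 0.072 and 0.076) and passed with the replicate block (edgeR adjusted p = 0.0073 and 0.034), with DESeq2 and with no filter, but with the numbers of compound 5 crossed in the block neither passed.

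Compound 6 against compound 5 gave −1.13 ± 0.15 for FGA, −0.997 ± 0.121 for FGB and −0.91 ± 0.12 for FGG (edgeR adjusted p = 0.011, 0.010 and 0.012). KNG1 differed by −4.13 ± 0.39 and ITIH3 by −1.26 ± 0.18 (edgeR adjusted p = 0.0039 and 0.016). The value for KNG1 is a description, since the filter on low counts chose it by this difference. DESeq2 called 4 of these 5 genes. None of the 5 passed without compound 6 replicate 1 (edgeR adjusted p between 0.085 and 0.13), only KNG1 passed without compound 6 replicate 2, and ITIH3 was also lost without compound 5 replicate 1 (edgeR adjusted p = 0.072). F7 had a difference of 1.28 ± 0.27 (edgeR adjusted p = 0.058, or 0.030 with the replicate block), and passed with DESeq2, with no filter, with at least 10 counts in every sample, with only the 4 samples and without either DMSO library (adjusted p up to 0.044).

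Compounds 4 and 6, which share the methylene bridge, gave differences of −0.03 (95% interval −0.36 to 0.31) for FGA, 0.09 (−0.18 to 0.36) for FGB and −0.33 (−0.61 to −0.05) for FGG, with KNG1 at 0.79 (−0.34 to 1.92) and ITIH3 at 0.32 (−0.09 to 0.73). These intervals do not show that the 2 compounds act alike. HP, at −0.77 ± 0.21, had the lowest unadjusted p of the members here (edgeR adjusted p = 0.42) and passed only with no filter on low counts.

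The other genes of these pathways were read from fixed lists. As a reference for every list, 9.51% of the 13400 tested genes passed for compound 4, 8.3% for compound 5 and 0.575% for compound 6. Whether a list exceeded these shares was not tested. Genes are named where they passed, and a compound that is not named may still have shifted the gene. Of 11 tested genes among 18 further coagulation and fibrinolysis genes, 4 passed under compound 4, 1 under compound 5 and 2 under compound 6. SERPINE2, a thrombin inhibitor of tissues, rose under compounds 4 and 5 (log2-fold change 2.40 ± 0.33 and 1.65 ± 0.34, edgeR adjusted p = 0.0050 and 0.021). Under compound 6, SERPINE2 was at 10.5 and 11.1 CPM, beside 3.89 and 2.59 under DMSO. CPB2, which slows fibrinolysis, fell under compounds 4 and 6 (−1.12 ± 0.18 and −1.05 ± 0.18, edgeR adjusted p = 0.0086 and 0.048). APOH, a phospholipid-binding plasma protein, fell under compound 4 (−0.83 ± 0.15, edgeR adjusted p = 0.013).

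Of 14 tested among 27 further complement genes, 2 passed under compound 4, 3 under compound 5 and 0 under compound 6. MASP1, a protease of the lectin pathway, rose under compounds 4 and 5 (1.18 ± 0.19 and 0.81 ± 0.19, edgeR adjusted p = 0.0086 and 0.035). Under compound 6, MASP1 was at 92.4 and 72.7 CPM, beside 50.6 and 37.4 under DMSO, without a call. CFD, factor D, fell under compound 4 (−1.07 ± 0.26, edgeR adjusted p = 0.034), and CD59 and CD46, which protect the cell surface, fell under compound 5 (−0.52 ± 0.10 and −0.43 ± 0.11, edgeR adjusted p = 0.021 and 0.048). Of 16 tested among 23 other plasma protein genes, 3, 2 and 0 passed for compounds 4, 5 and 6. The largest called values were those of HAMP, the iron hormone hepcidin, which rose under compound 4 (2.24 ± 0.43, edgeR adjusted p = 0.015), and A1BG, which rose under compound 5 (1.24 ± 0.20, edgeR adjusted p = 0.011) and was lower under compound 6 than under compound 5 (−1.72 ± 0.21, edgeR adjusted p = 0.010). HAMP was at 30.3 and 8.78 CPM under DMSO. It was at 57.7 and 39.6 under compound 5 and 49.2 and 63.7 under compound 6, without a call. SERPINA4 and CPN1 had the lowest called values under compounds 4 and 5 (−0.90 ± 0.23 and −0.74 ± 0.16, edgeR adjusted p = 0.041 and 0.024).

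Among 7 genes of gamma-carboxylation and secretion, FURIN, a propeptide-cleaving protease, rose and GGCX, the carboxylase, fell under compound 4 (1.25 ± 0.20 and −0.67 ± 0.13, edgeR adjusted p = 0.0082 and 0.016). SURF4, a cargo receptor of the secretory pathway, rose under compound 5 (0.44 ± 0.09, edgeR adjusted p = 0.023) and was lower under compound 6 than under compound 5 (−0.76 ± 0.09, edgeR adjusted p = 0.010). Of 16 liver transcription factor genes, ONECUT1 and NR1H4 fell under compound 4 (−1.19 ± 0.31 and −0.74 ± 0.16, edgeR adjusted p = 0.043 and 0.023), and CEBPB and HNF4G rose under compound 5 (1.03 ± 0.21 and 0.64 ± 0.16, edgeR adjusted p = 0.023 and 0.044). Of 11 tested genes of interleukin signalling, SOCS3, a feedback inhibitor of interleukin 6 signalling, and IL6R, its receptor, rose under compounds 4 (2.21 ± 0.46 and 1.26 ± 0.15, edgeR adjusted p = 0.019 and 0.0039) and 5 (1.92 ± 0.46 and 0.97 ± 0.15, edgeR adjusted p = 0.036 and 0.0098). Under compound 6, SOCS3 was at 4.90 and 4.54 CPM, beside 1.64 and 0.669 under DMSO. IL6R was at 108 and 125 CPM there, beside 73.1 and 59.7. Neither these lists nor the further complement and plasma protein lists had a call under compound 6. The acute phase genes CRP, SAA1 and SAA2 and the cytokine IL6 had 0 counts in all libraries.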

How the data were processed

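Polyadenylated RNA of 8 samples was sequenced with a directional library kit. Per the study's methods and the submitters' processing notes, the authors checked reads with FastQC 0.12.0, quantified them with Salmon 1.5.0 against a GENCODE 38 index (GRCh38), imported them per gene and tested them with DESeq2 1.38.3. The deposited values are estimated counts per gene, given as whole numbers, so no rounding was needed. Estimated counts divide reads shared by similar genes, and whether strand was used is not given in the sources used here.

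All 13400 genes that passed edgeR's filter (minimum count 10) were fitted together over the 8 samples with edgeR 4.0.16 (R 4.3.3, limma 3.58.1), TMM scaling and the quasi-likelihood test, with no replicate block, in 6 comparisons. The Benjamini-Hochberg adjustment ran over these genes, with a threshold of 0.05. SE is the log2-fold change over the square root of F, and intervals are 95%. CPM values use the TMM library sizes. With 2 samples against 2, no permutation test can pass 0.05. Depth, 9791659 to 17814595 counts per library, sets the counting error, and the floor for 0 counts covers counting error only.

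The labels name the replicate numbers day 1 and day 2, so the numbers pair the samples. The differences between replicates correlated between groups at r = −0.15 to 0.24 over 13400 genes, which are not independent. The values below 0 were those of compound 5 with compound 4 (−0.15) and with compound 6 (−0.052). Replicates differed by more than sampling noise, and none was counted as a duplicate. Alternatives were DESeq2 1.42.0, its size factors, no filter, at least 10 counts in every sample, only the 4 samples compared, the replicate block and leaving out each library. All members were accounted for. Genes named with values were members past the threshold in any comparison, a set of well-known members (ALB, AFP, TF, TTR, FGA, FGB, FGG, F2, SERPINA1, SERPINC1, A2M, C3, VTN and AGT), the lowest and highest of each subgroup under each compound and the 3 with the highest level per length under DMSO, and, of each other list, the lowest and highest called gene. Members whose call changed with the block, and other called genes of the lists, were added after their values were seen. A called gene of the further coagulation list is counted there but not reported here. The members and lists were chosen with earlier results of these data known. Promoters came from RefSeq (GRCh38.p14), which held 44 of the 55 members, and motifs were searched on both strands. Scripts were tested on simulated data.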

Additional observations from a re-analysis of the deposited data

Results flagged for a closer look

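The 9 results below are tests of the difference between 2 compounds that passed the threshold (edgeR's quasi-likelihood test, Benjamini-Hochberg adjustment), given as log2 differences. Compound 4 against compound 5 gave −1.16 for FGA, −0.91 for FGB, −1.24 for FGG and −3.34 for KNG1. Compound 6 against compound 5 gave −1.13 for FGA, −0.997 for FGB, −0.91 for FGG, −4.13 for KNG1 and −1.26 for ITIH3. KNG1 reached the filter on low counts only through compound 5, so its 2 values are a description.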

How the results depend on the processing

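With 2 samples per group, the counts of members past the threshold moved with the setting. The shares of all genes called under these settings were not worked out. The counts thus do not show whether the members moved more than other genes. With no filter on low counts they were 18, 18 and 13 for compounds 4, 5 and 6 against DMSO, 10 for compound 4 against 5, 1 for 4 against 6 and 10 for 6 against 5. DESeq2 gave 11 for compound 5, 7 for compound 6 and 7 for compound 4 against 5, and a fit of only the 4 samples gave 10, 8 and 2. The replicate block gave 13, 14 and 2 members for compounds 4, 5 and 6 against DMSO, and beyond the calls given with the results it changed no other call. With the numbers of compound 5 crossed in the block, chosen after seeing the data, 4 members passed for compound 4 against 5. Leaving out 1 library gave 0 to 11, 2 to 11 and 0 to 3 members against DMSO, 1 to 4 for 4 against 5, 0 for 4 against 6 and 0 to 6 for 6 against 5.

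Median log2-fold changes under compound 5 were −0.30 with DESeq2 and −0.30 with no filter for the carriers, −0.087 with DESeq2, −0.085 with no filter and −0.11 with at least 10 counts for the clotting genes, and −0.17 with at least 10 counts for the anticlotting genes. Leaving out 1 library gave medians over all members of −0.49 to −0.12 for compound 4, −0.24 to −0.15 for compound 5 and −0.32 to −0.092 for compound 6, and for compounds 4, 5 and 6 in turn −0.50 to −0.14, −0.33 to −0.16 and −0.48 to −0.20 (carriers), −0.47 to −0.27, 0.10 to 0.20 and −0.50 to −0.14 (clotting), −0.63 to −0.13, −0.47 to −0.23 and −0.31 to −0.02 (anticlotting), −0.18 to 0.16, 0.02 to 0.23 and −0.20 to 0.02 (inhibitors) and −0.43 to 0.10, −0.47 to −0.22 and −0.33 to 0.11 (complement). Without mitochondrially encoded genes in the total, the members took 6.84% of counts under DMSO and 5.81% under compound 5. Log2-fold changes that turned sign were those of A2M (−0.029 to 0.32, −0.0077 to 0.42 and −0.21 to 0.13 for compounds 4, 5 and 6), C3 (−0.051 to 0.29, −0.059 to 0.27 and −0.054 to 0.27), F12 (−0.028 to 0.29 and −0.13 to 0.67 for compounds 4 and 6), SERPINA1 (−0.36 to 0.070 for compound 4) and TTR (−0.34 to 0.67 and −0.34 to 0.15 for compounds 4 and 6). The cause was not tested.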
